A study of Homo sapiens with 4 samples.

Results

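The genes described here encode the proteins that carry out and steer pre-mRNA splicing: SR proteins, heterogeneous nuclear ribonucleoproteins (hnRNPs), the protein core of the spliceosome and the kinases that phosphorylate SR proteins. They were taken by symbol from a fixed list of 56 names, and all 56 were among the 55764 gene names of the FPKM table. They were read in TE5, an oesophageal squamous cell carcinoma line, in 4 bulk RNA-seq libraries. In 2 libraries, called ETS1 libraries below, the cells had received ETS1, a transcription factor, on a lentiviral vector that the protocol describes as CMV, a viral promoter active in most cells. The 2 control libraries came from cells given the vector backbone. The labels name the genotypes ETS1 Overexpression and WT and number the libraries 1 and 2 within each. They do not say whether these came from separate infections or cultures, so the p-values measure only the spread between these libraries, which may be technical.

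Splicing removes introns in steps. The U1 particle binds the start of the intron, U2AF and the U2 particle bind its end and branch point, and the U4/U6.U5 tri-snRNP then joins before the reaction begins. Each of U1, U2, U4 and U5 is built on a ring of Sm proteins, while U6 carries a related LSm ring. SR proteins mostly promote the use of exons, hnRNPs often oppose it, and the CLK and SRPK kinases control where SR proteins sit and what they bind. These genes are active in nearly every cell.

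Values are FPKM (fragments scaled by gene length and library size). Levels can be compared between genes only as far as the gene length used fits the RNA made. The most abundant genes below are those highest in FPKM. Differences are ETS1 minus control on the log2(FPKM + 1) scale, tested with limma over all 14306 genes whose mean reached 1 FPKM and called at a Benjamini-Hochberg adjusted p under 0.05. All 56 genes reached that filter. Their median level was 68.5 FPKM, against 6.33 FPKM for all tested genes, and each rested on 815 to 90240 recovered reads per library. Library depth, as recovered reads, ran from 40356723 to 44119604 for controls and from 56502875 to 57269984 with ETS1. ETS1 itself was 0.491 and 0.509 FPKM in the controls and 1.84 and 1.87 FPKM in the ETS1 libraries, in the direction of the labels. Even in the ETS1 libraries it stayed below the median level of all tested genes. Of the markers, the squamous genes KRT5, KRT14, KRT6A and TP63 were at 0 in both controls and reached a sum of at most 0.0410 FPKM with ETS1, so the defining markers of the labelled cell type are absent here. The epithelial markers KRT8, KRT18, EPCAM and CDH1 summed to between 16.1 and 16.9 FPKM per library, with KRT8 and CDH1 higher and KRT18 and EPCAM lower in both ETS1 libraries than in both controls. The fibroblast markers summed to 2.07 to 2.19 FPKM in the controls and 2.81 to 2.88 FPKM with ETS1, nearly all of it COL1A1, while COL1A2 and DCN were at or near 0. The part of these markers in the results below was not tested. Fewer cells of a type and less RNA per cell cannot be told apart in bulk RNA.

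Across the 56 genes, 9 were called higher (16.1%) and 21 lower (37.5%) in the ETS1 libraries. Over all tested genes 30.7% were called higher and 28.4% lower, or 59.1% in either direction, against 53.6% of these genes. Both ETS1 values lay on one side of both control values for 46 of the 56 (82.1%), against 82.0% of all tested genes. By direction, 18 lay above and 28 below, against backgrounds of 43.1% and 38.9%. Of the 30 called genes, 20 (66.7%) had an absolute log2 difference under 0.3, against 49.5% of all 8451 called genes. The median over the 56 genes was -0.04 and that over all tested genes 0.02. These medians and counts depended on scaling, since quantile normalization gave 24 higher, 12 lower and a median of 0.08. Over all 14306 tested genes it gave 4237 higher, so the share called higher was then larger among the 56 genes. Fewer of the 56 genes were called higher when either one of the ETS1 libraries was left out, as was so for all tested genes.

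The level of a gene moved with the direction of its change. Among 904 other genes that averaged 50 FPKM or more, 61.4% were called lower and 15.2% higher, with a median log2 difference of -0.18. Of these 56 genes, 35 reached that level, and 40.0% of them were called lower and 14.3% higher, with a median of -0.07. Under quantile normalization the median over all 939 genes at that level was -0.01. Without rescaling, the share of splicing genes called lower was above that of all tested genes and below that of other genes at 50 FPKM or more. Quantile normalization reversed the first of these, with 12 of 56 splicing genes lower against 3898 of all 14306. The part of expression level in the results below was not tested.

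**Figure D1:**
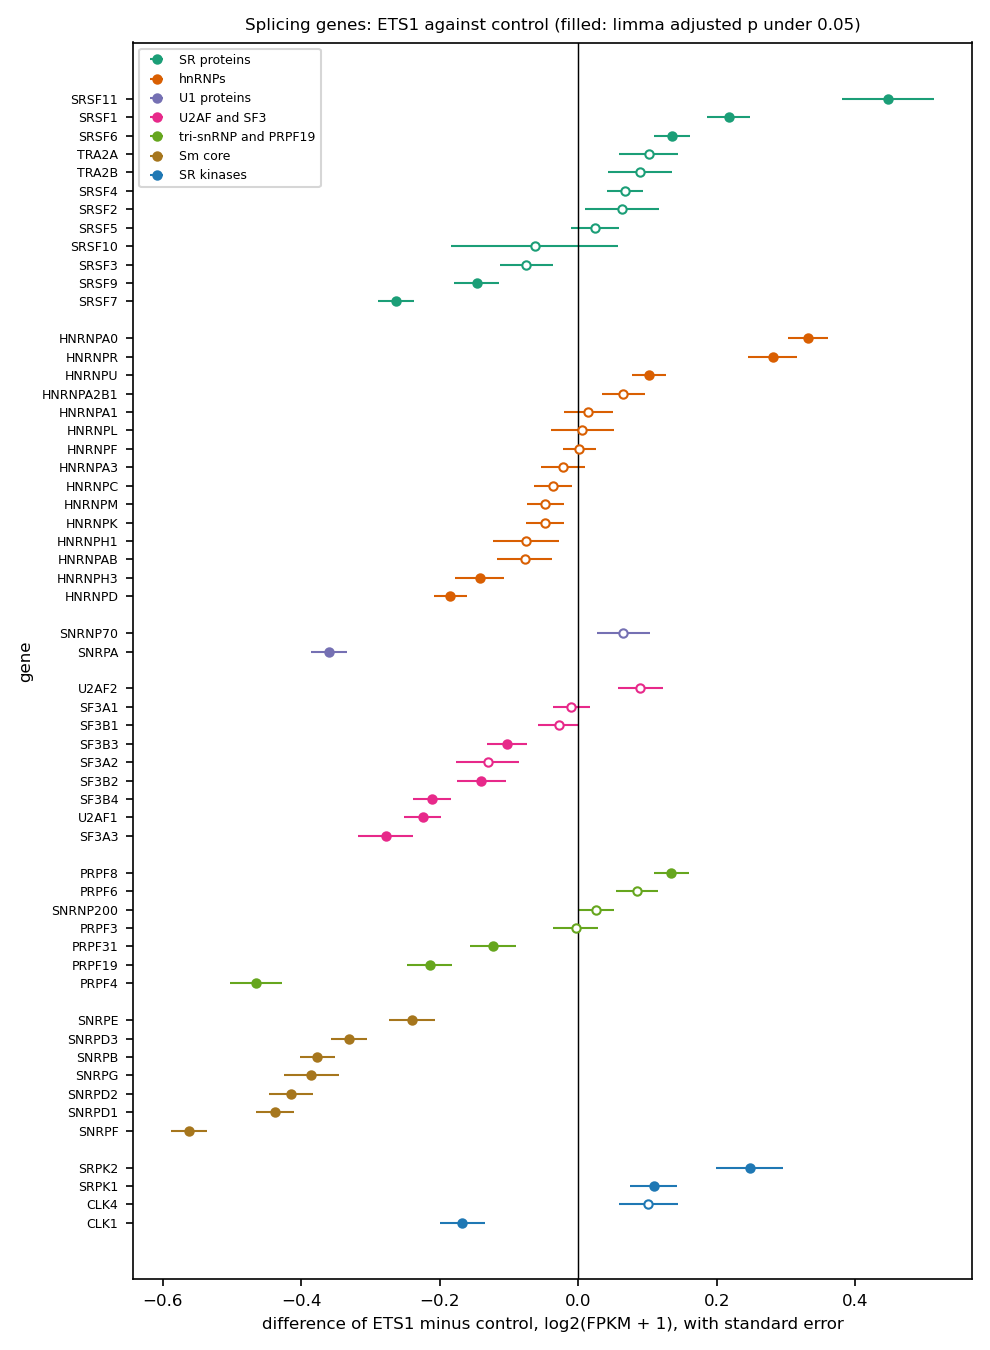
The horizontal axis is the difference of ETS1 minus control on the log2(FPKM + 1) scale for each of the 56 genes, with bars of 1 standard error from limma and filled points for an adjusted p under 0.05; colours mark the role of the protein. All 7 Sm genes lie between -0.56 and -0.24, while the SR proteins and hnRNPs lie on both sides of 0.

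The Sm ring showed the most uniform change. The proteins SNRPB, SNRPD1, SNRPD2, SNRPD3, SNRPE, SNRPF and SNRPG form the ring that assembles around the RNA of U1, U2, U4 and U5, and all 7 genes fell, with a median log2 difference of -0.39. Summed over the 7 genes, the level was 1022 and 1035 FPKM in the controls and 788 and 783 FPKM in the ETS1 libraries, a ratio of 0.763. None of the 7 overlapped between groups, where 38.9% of all tested genes lay wholly lower with ETS1. As given above, 28.4% of all tested genes and 61.4% of other genes at 50 FPKM or more were called lower.

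SNRPF (chr12:95858928-95903828) fell most. It was 79.3 and 80.9 FPKM in the controls and 54.1 and 53.8 FPKM in the ETS1 libraries, that is 80.1 ± 1.10 against 53.9 ± 0.265 (SD, n = 2 each). Both ETS1 values lay far below both control values, and the log2 difference was -0.56 (standard error 0.026, limma adjusted p 0.000482). SNRPD1 (chr18:21612267-21633524) went from 140.4 and 143 FPKM to 105 and 103 FPKM, a log2 difference of -0.44 (limma adjusted p 0.000648). SNRPD2, the most abundant of the ring (chr19:45687454-45692569), went from 256 and 264 FPKM to 198 and 192 FPKM, a log2 difference of -0.41 (limma adjusted p 0.000927). In each of these genes the gap between groups was several times the gap within a group. The remaining 4 fell by 0.24 (SNRPE) to 0.39 (SNRPG) on the log2 scale, with limma adjusted p-values of at most 0.00377.

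**Figure D2:**
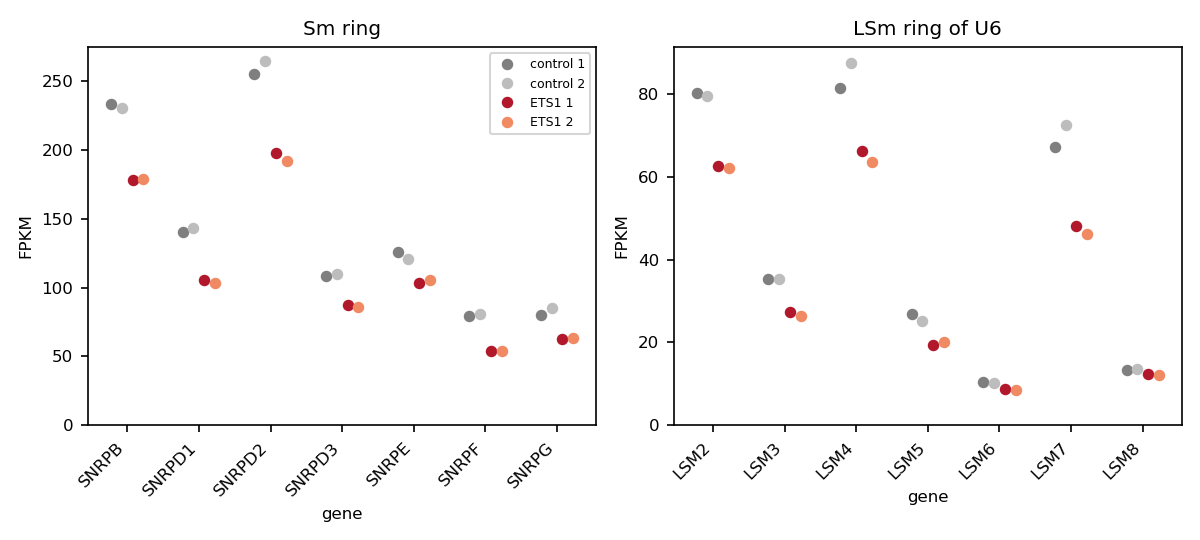
The vertical axes give FPKM in each of the 4 libraries for the Sm genes (left) and the genes of the LSm ring of U6 (right), with grey points for controls and red and orange points for ETS1 libraries. In every gene of both rings the 2 ETS1 points sit below the 2 control points, from 80.1 to 53.9 FPKM on average in SNRPF and from 13.4 to 12.3 FPKM in LSM8.

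The fall of the Sm genes held without each library in turn, with 7 of 7 called each time. Under quantile normalization 6 of 7 were called and the median was -0.23, with SNRPE at -0.07 and a limma adjusted p of 0.145. The authors' deposited table gives the 7 genes log2 fold changes from -0.59 to -0.26, with adjusted p-values of at most 3.66e-08. The Sm genes are short, and shorter genes were lower as a whole: a smooth trend on gene length stood at -0.11 to -0.05 for these 7. With that trend removed all 7 were still called lower, with a median of -0.29 and a range of -0.51 to -0.13. The 50 nearest tested genes on the chromosome had medians between -0.06 and 0.15 at the 7 loci, and with these removed the Sm median was -0.40.

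Reads of some Sm genes can be divided with processed copies. The table lists 30 pseudogene names for 5 of the 7 genes. Reads could be recovered for only some of these copies: 2 of 9 for SNRPE, 3 of 14 for SNRPG and 1 of 4 for SNRPF. Those made up 14.2% of the reads summed with the parent for SNRPE, 11.7% for SNRPG and 0.877% for SNRPF. Adding these copies to the parent gene left the ratio of ETS1 to control reads, scaled by depth, at 0.837 for SNRPE against 0.846 without them, and at 0.760 against 0.763 for SNRPG. With these copies added, both genes kept their direction. In GENCODE 29, 24.6% of the exon bases of SNRPD3 and 20.0% of those of SNRPB lie in exons of another gene, for SNRPB on the same strand and for SNRPD3 on both. The levels of these 2 genes are therefore uncertain, and whether counting used strand is not given in the sources used here.

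Promoter letters were examined because ETS1 binds DNA through a GGAA core. The motif CCGGAAG was searched on both strands in the RefSeq promoter windows (GRCh38.p14, 250 bases before to 50 after the start). Of the 50 splicing genes matched by symbol, 16 held it in at least 1 window (32.0%), against 22.8% of 8925 matched tested genes and 12.2% of all 27305 genes in the table. By role it was found in 6 of 8 U2AF and SF3 genes, 4 of 6 Sm genes, 2 of 14 hnRNPs and none of the 4 kinases. The median log2 difference was -0.14 for splicing genes with the motif and -0.04 for those without it. For all tested genes these were 0.02 and 0.05. Within roles the gap went both ways. The medians with and without the motif were -0.38 and -0.45 for Sm genes, 0.06 and -0.17 for tri-snRNP genes and 0.05 and 0.01 for SR genes. They were -0.14 and -0.13 for U2AF and SF3 genes and -0.09 and -0.03 for hnRNPs. Only 2 SR genes, 2 hnRNPs and 2 tri-snRNP genes held the motif, so these medians rest on few genes. A match is a description of letters, not a measured binding site.

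To show where these letters fall, the 120 bases before the start are given for 3 Sm genes with the motif close to the start, written 5′ to 3′ along the gene's strand, with the motif on either strand in capitals. SNRPB is shown from chr20:2470790-2470909, SNRPD2 from chr19:45692317-45692436 and SNRPG from chr2:70293459-70293578, all on the minus strand.
SNRPB: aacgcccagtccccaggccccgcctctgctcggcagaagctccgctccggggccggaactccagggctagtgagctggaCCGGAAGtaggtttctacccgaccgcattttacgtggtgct
SNRPD2: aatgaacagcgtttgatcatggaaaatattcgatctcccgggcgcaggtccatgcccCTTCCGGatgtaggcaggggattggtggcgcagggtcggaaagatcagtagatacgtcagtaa
SNRPG: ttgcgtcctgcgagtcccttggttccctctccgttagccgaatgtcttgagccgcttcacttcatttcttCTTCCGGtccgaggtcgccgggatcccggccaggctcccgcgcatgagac
The motif begins 41 bases before the start in SNRPB, 63 in SNRPD2 and 50 in SNRPG. RefSeq gives SNRPD2 and SNRPG 3 start windows each, of which the one with the motif nearest its start is shown: the other two of SNRPD2 hold no match, and those of SNRPG hold it 61 and 175 bases before the start. All 3 genes fell, as did SNRPF and SNRPD3, whose windows hold no match.

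Of the U1 proteins, SNRPA fell and SNRNP70 was not called. SNRPA, which binds a stem-loop of U1 RNA (chr19:40750637-40765389), was 77.8 and 78.1 FPKM in the controls and 59.9 and 61.1 FPKM in the ETS1 libraries. Its groups were far apart beside a spread of at most 0.818 FPKM (SD, n = 2), and the log2 difference was -0.36 with a limma adjusted p of 0.000797. Under quantile normalization the difference was -0.20 (limma adjusted p 0.00377). SNRNP70, the U1 protein contacted by SR proteins, was 107 and 114 FPKM in the controls and 117 and 114 FPKM in the ETS1 libraries. Its difference of 0.07 did not pass (limma adjusted p 0.201), though it passed under quantile normalization (0.23, adjusted p 0.00389) and with the local chromosomal median removed (0.13, adjusted p 0.0306).

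The factors that recognise the end of the intron are U2AF and the SF3A and SF3B subunits of U2. Of these 9 genes, 5 fell, 0 rose and 4 were not called, with a median of -0.13, beside 28.4% lower and 30.7% higher over all tested genes. Under quantile normalization 2 of the 9 were lower and 2 higher. SF3A3 (chr1:37956975-37990921) fell most, from 38.5 and 40.0 FPKM to 33.1 and 31.3 FPKM, a log2 difference of -0.28 (limma adjusted p 0.00419). U2AF1, the subunit that reads the AG at the intron's end, went from 27.7 and 27.8 FPKM to 23.8 and 23.4 FPKM, a difference of -0.22 (limma adjusted p 0.00259). The human assembly holds a near-identical copy of U2AF1, so its level is uncertain. SF3B4 was the most abundant of the 9 in FPKM, though not in reads. It went from 72.2 and 70.2 FPKM to 61.3 and 61.5 FPKM, a difference of -0.21 (limma adjusted p 0.00321).

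SF3B1, the large subunit that holds the branch point and is often mutated in blood cancers, was 45.8 and 44.7 FPKM in the controls and 44.8 and 43.8 FPKM in the ETS1 libraries. These overlap, and its difference of -0.03 did not pass (limma adjusted p 0.44) and was 0.08 under quantile normalization. SF3B1 was called lower with the length trend removed and with the local chromosomal median removed, reaching -0.13. The other members ranged from -0.14 (SF3B2) to 0.09 (U2AF2). SF3B2 and SF3B3, both called, lost the call without control 2, ETS1 1 or ETS1 2, which left 3 genes lower. Both also lost it without the filter on low values and under quantile normalization, where each was -0.03. U2AF2 rose without control 2, making 1 gene higher. SF3B4 did not pass under quantile normalization (-0.05, limma adjusted p 0.166).

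In the tri-snRNP with PRPF19, the ubiquitin ligase that helps activate the spliceosome, 3 of 7 genes fell, 1 rose and 3 were not called, beside 28.4% lower and 30.7% higher over all tested genes. Quantile normalization reversed that balance, with 3 higher, 1 lower and a median of 0.03. PRPF4, a U4/U6 protein (chr9:113275343-113292905), was 27.7 and 26.4 FPKM in the controls and 19.6 and 19.0 FPKM in the ETS1 libraries. That was the largest fall among the 56 genes after SNRPF, -0.46 with a limma adjusted p of 0.00100, and the median of its neighbours on chromosome 9 was -0.13. PRPF19 went from 71.3 and 74.6 FPKM to 62.5 and 62.9 FPKM, a difference of -0.21 (limma adjusted p 0.00472).

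PRPF8, the large U5 protein at the catalytic centre, went the other way, from 36.0 and 36.2 FPKM to 39.8 and 39.6 FPKM. Its difference of 0.13 (limma adjusted p 0.00955) passed with narrow spreads of 0.182 and 0.105 FPKM (SD, n = 2 each). Its neighbours had a median of 0.15 and the length trend stood at 0.13, and with either removed it did not pass (-0.0142, adjusted p 0.659, and 0.0028, adjusted p 0.932). Without ETS1 1 or ETS1 2 it also lost the call, leaving 0 genes higher, and PRPF31 (-0.12) lost its call without control 2, ETS1 1 or ETS1 2. PRPF31 was -0.02 with the local median removed (limma adjusted p 0.553), -0.05 with the length trend removed (0.263) and -0.06 under quantile normalization (0.181), and in all it kept its call under 6 of 14 alternatives. The level of PRPF31 is uncertain also because 32.0% of its exon bases lie in exons of another gene. PRPF3, PRPF6 and SNRNP200, the helicase that unwinds U4 from U6, lay between -0.0035 and 0.08. PRPF19 did not pass under quantile normalization (-0.04, adjusted p 0.304).

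Of the 12 SR genes, counting the SR-like TRA2A and TRA2B, 3 rose, 2 fell and 7 were not called, with a median of 0.07. Neither count is a larger share than over all tested genes, 30.7% higher and 28.4% lower. This balance depended on scaling, since quantile normalization gave 7 higher, 1 lower and a median of 0.19. Over all 14306 tested genes it gave 4237 higher and 3898 lower, so the share called higher was then larger among SR genes. SRSF11 (chr1:70205682-70253052) was 55.7 and 51.0 FPKM in the controls and 69.3 and 76.9 FPKM in the ETS1 libraries. It had the largest rise of the 56 genes, 0.45 on the log2 scale (standard error 0.067, limma adjusted p 0.00468), from a mean of 53.3 ± 3.32 to 73.1 ± 5.35 FPKM (SD, n = 2 each). Its neighbours had a median of 0.20, and with that removed the difference was 0.24. SRSF1, the founding SR protein, with the highest mean of the class over the 4 libraries (chr17:58003360-58007346), went from 109.6 and 105 FPKM to 124 and 126 FPKM, a difference of 0.22 (limma adjusted p 0.00402).

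SRSF7 moved in the opposite direction. It was 77.3 and 75.8 FPKM in the controls and 63.5 and 63.7 FPKM in the ETS1 libraries, a difference of -0.26 (limma adjusted p 0.00153). SRSF3, its close relative and the most abundant SR gene in the controls, was 112 and 105 FPKM in the controls and 102 and 103 FPKM in the ETS1 libraries, which did not pass (-0.08, limma adjusted p 0.151) and was 0.08 under quantile normalization. SRSF6 (0.13) rose and SRSF9 (-0.15) fell, and the other SR genes lay between -0.08 and 0.10. The sum over the class was 833 and 804 FPKM in the controls and 847 and 855 FPKM in the ETS1 libraries, a ratio of 1.04 although single genes moved in both directions.

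SRSF1, SRSF7 and SRSF11 kept direction and call under all 14 alternatives tried. Their sizes moved under quantile normalization, to -0.09 for SRSF7 (limma adjusted p 0.0358), 0.36 for SRSF1 and 0.58 for SRSF11. SRSF6 was 0.07 with the local chromosomal median removed (limma adjusted p 0.0689), and SRSF9 was -0.0090 under quantile normalization (0.806) and did not pass without the filter on low values. SRSF6 lost its call without ETS1 1 or ETS1 2 and SRSF9 without ETS1 2, which left 2 SR genes higher and 1 lower without ETS1 2, while 5 SR genes were higher without control 1 and 4 lower without control 2. In GENCODE 29, 60.7% of the exon bases of SRSF1, 46.2% of those of SRSF9 and 36.7% of those of SRSF2 lie in exons of another gene, so those levels are uncertain. The overlapping gene is on the other strand for SRSF9, and there are such genes on both strands for SRSF1 and SRSF2.

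**Figure D3:**
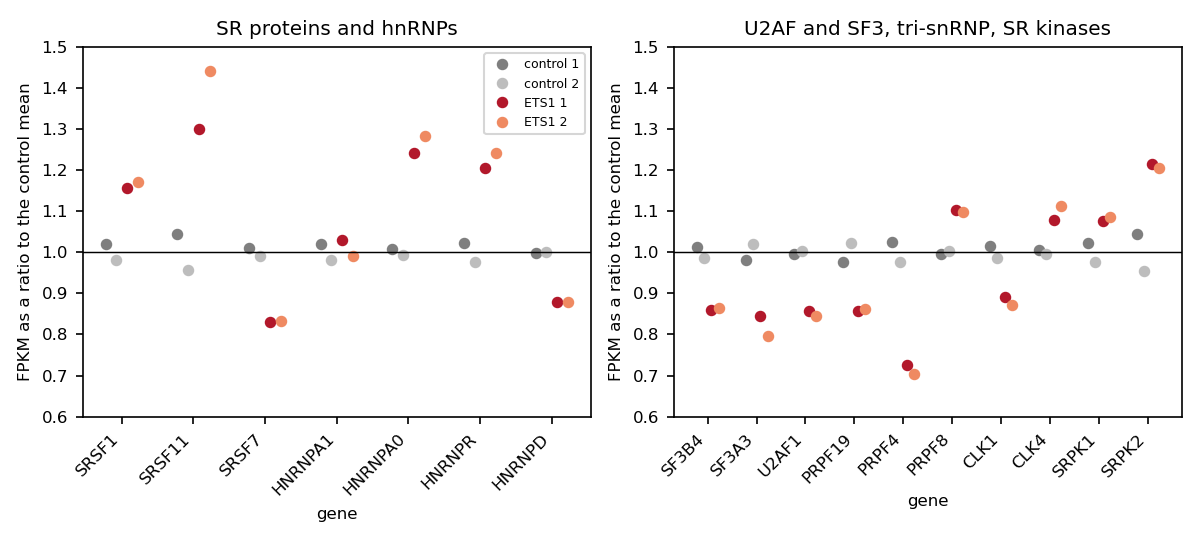
The vertical axes give FPKM in each library divided by the gene's own control mean, on an axis from 0.6 to 1.5, for the SR proteins and hnRNPs (left) and the U2AF, SF3, tri-snRNP and kinase genes (right) given by library in the text. SRSF11, SRSF1, HNRNPA0 and HNRNPR sit above 1 in both ETS1 libraries and SRSF7 and HNRNPD below it, while the ETS1 values of HNRNPA1 fall on both sides of 1.

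Of the 15 hnRNPs, 3 rose, 2 fell and 10 were not called, with a median of -0.02. Both counts are smaller shares than over all tested genes, 30.7% higher and 28.4% lower. Quantile normalization gave 9 higher, 0 lower and a median of 0.14, beside 4237 higher and 3898 lower of all 14306 tested genes. With the length trend removed 5 hnRNPs were lower and 2 higher. With the local chromosomal median removed, and in the authors' deposited table, 4 were lower and 3 higher. The sum over the 15 genes was 1736 and 1726 FPKM in the controls and 1728 and 1729 FPKM in the ETS1 libraries. HNRNPA1, an abundant silencer of exon use, was 269 and 259 FPKM in the controls and 272 and 262 FPKM in the ETS1 libraries. These overlap, and its difference of 0.01 did not pass (limma adjusted p 0.738). The table lists 75 pseudogene names for it, and the 6 with recovered reads held 32.8% of the reads summed with the parent.

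HNRNPA0 and HNRNPR rose. HNRNPA0, an intronless gene whose protein binds AU-rich mRNA ends (chr5:137745651-137754376), was 76.4 and 75.2 FPKM in the controls and 94.1 and 97.2 FPKM in the ETS1 libraries. The difference was 0.33 with a limma adjusted p of 0.00120, and the means were 75.8 ± 0.823 and 95.7 ± 2.18 FPKM (SD, n = 2 each). HNRNPR went from 24.7 and 23.6 FPKM to 29.1 and 29.98 FPKM, a difference of 0.28 (limma adjusted p 0.00298). HNRNPD, also known as AUF1, fell from 99.3 and 99.5 FPKM to 87.4 and 87.4 FPKM, a difference of -0.18 (limma adjusted p 0.00321). It did not pass under quantile normalization (-0.03, adjusted p 0.337).

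HNRNPU (0.10) rose and HNRNPH3 (-0.14) fell, and the other hnRNPs lay between -0.08 and 0.07. HNRNPU lost its call without control 1, ETS1 1 or ETS1 2, and with the length trend removed its difference was 0.0050 (limma adjusted p 0.871). HNRNPH3 was -0.01 under quantile normalization (limma adjusted p 0.817), did not pass without the filter on low values, and lost its call without control 1 or ETS1 1, which left 1 hnRNP lower and, with HNRNPU also lost, 2 higher.

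Of the 4 SR protein kinases 2 rose, 1 fell and 1 was not called, beside 30.7% higher and 28.4% lower over all tested genes. CLK1, a nuclear kinase that loosens SR proteins from speckles, was 12.9 and 12.5 FPKM in the controls and 11.3 and 11.1 FPKM in the ETS1 libraries. It fell by 0.17 on the log2 scale (limma adjusted p 0.0110). CLK4, its relative, was 3.15 and 3.12 FPKM in the controls and 3.38 and 3.49 FPKM in the ETS1 libraries, which did not pass (0.10, limma adjusted p 0.0962). The differences of CLK1 and CLK4 had opposite signs, and whether they differ from each other was not tested.

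SRPK2, a mostly cytoplasmic kinase that readies SR proteins for import, rose from 7.90 and 7.23 FPKM to 9.20 and 9.13 FPKM, a difference of 0.25 (limma adjusted p 0.0105). SRPK1 was 22.6 and 21.6 FPKM in the controls and 23.8 and 24.0 FPKM in the ETS1 libraries, a difference of 0.11 (limma adjusted p 0.0414). SRPK1 lost the call without control 2, ETS1 1 or ETS1 2 and CLK1 without ETS1 2. SRPK1 kept its direction and call under 6 of 14 alternatives, with adjusted p-values from 0.0107 to 0.332.

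Other genes of the pathway were read from 10 further lists, whose counts stand beside 30.7% higher and 28.4% lower over all tested genes. The LSm ring of U6 resembled the Sm ring: all 7 genes fell, with a median of -0.37, and their sum was 315 and 324 FPKM in the controls and 245 and 239 FPKM in the ETS1 libraries. LSM7 went from 67.2 and 72.5 FPKM to 48.2 and 46.2 FPKM, a difference of -0.56 (limma adjusted p 0.00111). LSM3 went from 35.2 and 35.4 FPKM to 27.3 and 26.4 FPKM, a difference of -0.38 (limma adjusted p 0.000933). LSM8, listed under its older symbol NAA38, had the smallest change, -0.12, and 6 of 7 genes were called without each library in turn.

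The other U1 and U2 proteins fell in 9 of 13 tested genes and rose in 3, with a median of -0.20, which was -0.04 with 6 lower and 3 higher under quantile normalization. SNRPA1, the U2 partner of SNRPB2, was 36.8 and 39.5 FPKM in the controls and 25.5 and 24.6 FPKM in the ETS1 libraries, a difference of -0.59 (limma adjusted p 0.000854). PUF60, a partner of U2AF, fell by 0.49 on the log2 scale, on chromosome 8, where its neighbours had a median of -0.34. LUC7L2 was listed at 0 in all 4 libraries and was not tested. The other tri-snRNP proteins fell in 5 of 10 genes and rose in 2, or in 1 without control 1, ETS1 1 or ETS1 2, with NHP2L1, the older symbol of SNU13, at -0.51 and SNRNP27 at 0.55. The PRP19 complex and activation list had 6 of 13 lower and 1 higher, led by AQR (-0.40) on chromosome 15, where its neighbours had a median of -0.28, and SYF2 (-0.28). Without ETS1 1 or ETS1 2 that list had 2 lower and 0 higher, without control 1 it had 4 lower and 0 higher, and quantile normalization gave 3 lower, 1 higher and a median of -0.02.

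The helicases and step factors differed in sign from the rings. Of 13 genes, 7 rose and 0 fell, with a median of 0.16. DDX39B, the helicase that loads U2 and exports mRNA, went from 31.6 and 31.9 FPKM to 40.6 and 39.4 FPKM, a difference of 0.32 (limma adjusted p 0.00123), and PRPF39, a U1 accessory protein, rose by 0.26. With the local chromosomal median removed 5 rose and the median was 0.08. Among 6 other kinases and import factors 3 rose and 1 fell, with PRPF4B at 0.39 and DYRK1A at 0.33, and 0 fell without control 2, ETS1 1 or ETS1 2. Among 15 other SR and hnRNP-type proteins 4 rose and 6 fell, with PCBP1 at 0.35 and HNRNPDL at -0.34. Quantile normalization gave 6 higher and 4 lower there, and without ETS1 2 there were 2 higher and 4 lower.

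The authors' deposited table, which rests on the same 4 libraries and so is no independent check, called 8 of the 56 genes higher and 25 lower, where 25.3% and 25.9% of its 15683 genes with an adjusted p were called. Of these, 29 were also called by limma, all 29 in the same direction. SRPK1 was called by limma alone. SRSF3, HNRNPAB, HNRNPH1 and SF3A2 were called lower in the authors' deposited table alone.

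**Figure D4:**
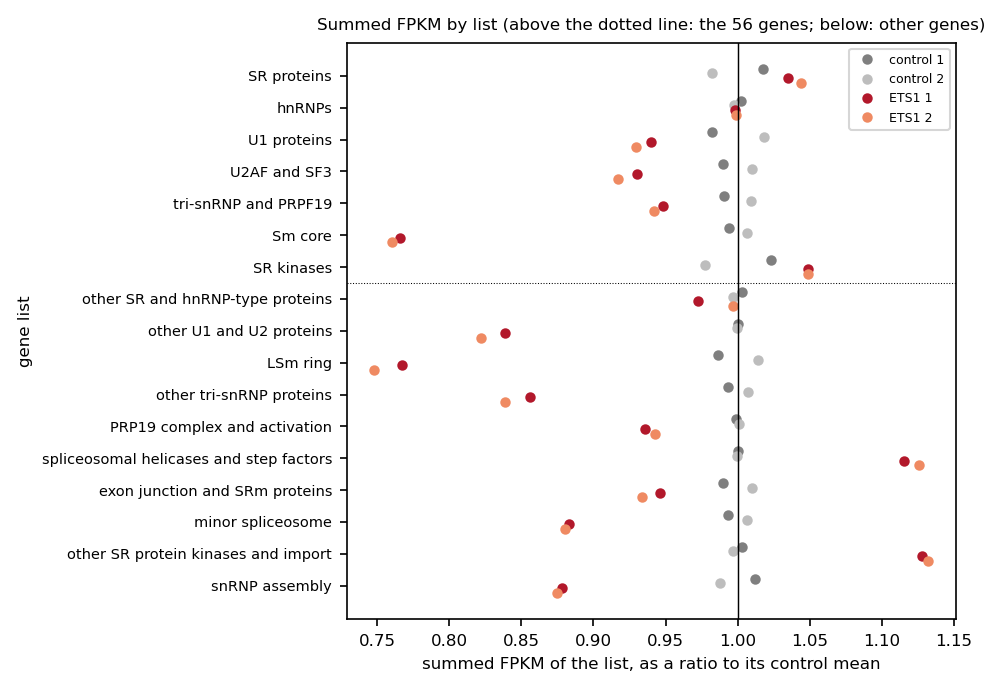
The horizontal axis is the summed FPKM of each list in each library as a ratio to its control mean, on an axis that does not start at 0; the 7 roles of the 56 genes are above the dotted line and the other lists below. The Sm and LSm rings stand at ratios of 0.763 and 0.758, the hnRNPs at 0.998, and the helicases and step factors at 1.12.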

How the data were processed

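Per the labels, 2 control and 2 ETS1 libraries of TE5 were sequenced. The submitters' processing notes name HISAT2, HTSeq, DESeq2 and hg38 (GRCh38) without versions or settings; annotation and strand are not given in the sources used here. The deposited table of all genes holds FPKM computed by the authors. A second deposited table of 16652 genes repeats it (0 cells differed) and holds, per the file headers, the authors' mean normalized count (a signal over the 4 libraries), log2 fold change with its standard error, p-value and adjusted p-value (missing for 969 genes).

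FPKM was taken as log2(FPKM + 1) and genes averaging 1 FPKM or more were tested with limma 3.58.1 in R 4.3.3 (group term, intensity trend, 2 residual and 2.84 prior degrees of freedom, two-sided, Benjamini-Hochberg over 14306 genes, threshold 0.05). An exact permutation test of 2 against 2 cannot go below 0.333. Whole reads were recovered from FPKM and the mean normalized counts: 99.7% of values fell within 0.05 of a whole number. Positions are from GENCODE 29 on GRCh38, which may not be the authors' annotation; inferred gene lengths were within 2% of its exon unions for 77.9% of genes.

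The alternatives were a pseudocount of 0.1, no filter, a filter at a mean of 5 FPKM, quantile normalization, trimmed-mean scaling, the replicate number as a block, a length trend removed (loess, span 0.5), voom on recovered reads, the authors' deposited values, each library left out and, added after seeing the data, the local chromosomal median of 50 neighbours removed. The fit was tested on a single simulated draw with few changed genes. It missed many of the smallest changes, of the size of most differences given here. Unchanged genes made up a larger share of its calls than the threshold. A single draw does not give the average share, and far more genes were called in the real data, so that share may differ there. In a draw with nothing changed it made no calls.

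In each role the text gives by library the most abundant gene and the 3 with the largest absolute difference (all in roles of 4 or fewer), and from each other list at most the 2 with the largest; SF3B1, SRSF3, LSM8 and the members given by their difference alone were chosen after their values were seen. The members and lists were chosen with earlier results of these data known.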

Additional observations from a re-analysis of the deposited data

How the results depend on the processing

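Under the 14 alternatives, the number of the 56 genes called higher (9) moved by over 1.5 times under quantile normalization (24) and with one library left out (5 to 10, with 5 without either ETS1 library). The number called lower (21) moved so under quantile normalization only (12) and ran from 16 to 21 in the fits without one library. Of the 30 called genes, 16 kept direction and call under every alternative, among them 6 of the 7 Sm genes. For the 22 members that the naming rule gives by library there were 307 values under alternatives, of which 282 kept direction and call, 15 lost the call, 4 gained it and 6 changed sign. Among these 22, the sign changes were in HNRNPA1, not called at 0.0149, which was -0.007 under trimmed-mean scaling, -0.0148 with the length trend removed, -0.01 in the authors' deposited table and -0.0132 to 0.043 in the fits without one library, and in PRPF8, which was -0.0142 with the local chromosomal median removed; the cause was not tested. The replicate numbers do not pair the libraries by any label, and the deviations of same-numbered libraries correlated at -0.046 across genes. With the replicate block 7 of the 56 genes were higher and 17 lower, with HNRNPU, SRPK1, HNRNPH3, SF3B2, SF3B3 and PRPF31 no longer called. In the fits without one library the lone library is assumed to vary like the other group, and fewer of all tested genes were called. Each gene rested on 815 or more reads per library, and each group on 2 libraries.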

Other observations

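Genes for snRNP assembly, which load the Sm ring onto U RNAs, were lower in 12 of 16 cases and higher in 3, with a median log2 difference of -0.20, where 28.4% of all tested genes were called lower. Without ETS1 2, 6 of the 16 were lower and 2 higher. CLNS1A, which holds Sm proteins before assembly, went from 47.5 and 46.6 FPKM in the controls to 34.3 and 33.1 FPKM in the ETS1 libraries. PHAX, which exports U RNAs from the nucleus, went the other way, from 10.9 and 11.1 FPKM to 16.3 and 16.9 FPKM, a difference of 0.56 (limma adjusted p 0.000631). SMN1 was 24.9 and 17.1 FPKM in the controls and 12.8 and 11.9 FPKM in the ETS1 libraries; it varied between the controls and shares reads with its near-identical copy SMN2, so its level is uncertain. CLNS1A was chosen after its values were seen.

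Of the minor spliceosome, which removes a rare class of introns, 4 of 8 genes were lower and 1 higher, or 2 lower and 1 higher without ETS1 1. SNRNP48 went from 6.47 and 6.00 FPKM to 10.2 and 10.8 FPKM (0.67, limma adjusted p 0.00083). PDCD7 went from 15.2 and 15.7 FPKM to 10.2 and 9.96 FPKM (-0.57, limma adjusted p 0.000623), on chromosome 15, where its neighbours had a median of -0.25. In the exon junction and SRm list 7 of 11 genes were lower and 2 higher, the latter being the splicing coactivators SRRM2 (0.38) and SRRM1 (0.38). Both lists stand beside 28.4% lower and 30.7% higher over all tested genes. SRRM2 went from 50.8 and 52.6 FPKM to 67.6 and 67.8 FPKM.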
